A study of Homo sapiens with 34 samples.

Results

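Mast cells and basophils share the storage of histamine and proteases in granules and carry the high-affinity receptor for IgE. The genes described here are 7 that mark these cells, namely TPSAB1, TPSB2, CPA3, HDC, FCER1A, FCER1G and CMA1, chosen by name as rows of the expression table. Of the 7, 6 were analysed among the 20255 genes of the table, over all 34 samples and 12 populations, and CMA1 was not analysed here. The order in which they appeared differed: HDC and CPA3 were called higher already in day 4 cells, FCER1A and FCER1G in day 6 CD43+ cells, and the tryptase genes TPSAB1 and TPSB2 only from day 12 onwards among the comparisons made. Day 4 cells were unsorted and day 6 cells sorted, so the order across that step mixes day and sort.

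Mast cells and basophils are granulated cells of haematopoietic origin that bind IgE through a receptor of an alpha, a beta and gamma chains. Cross-linking of that receptor releases histamine, proteases and lipid mediators. Mast cells mature in tissues under KIT signalling and store tryptases, chymase and carboxypeptidase A, whereas basophils circulate and hold little of these proteases. The gamma chain, encoded by FCER1G, is also used by Fc receptors of monocytes, macrophages and neutrophils and is therefore not particular to mast cells and basophils.

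All populations share 1 genetic background, that of the H1 line of human embryonic stem cells. Embryoid bodies (EBs) were attached to collagen IV, given BMP4 and VEGF at the start and VEGF alone thereafter, with no haematopoietic cytokine added in any population. Undifferentiated H1 cells (1 sample), day 0 EBs, day 2 cells and day 4 cells were unsorted. CD43- and CD43+ cells were sorted on days 6, 9 and 12, and CD43-CD45- and CD43+/CD45+ cells on day 16, here called CD43- and CD43+ cells of that day, with 3 biological replicates in each of the 11 populations other than H1. The sort was by CD43 alone on days 6, 9 and 12 and by CD43 and CD45 on day 16, so mast cells or basophils were not isolated. Between day 12 and day 16, day and gate therefore cannot be told apart in any comparison. The same holds for day and sort between the unsorted day 4 cells and the sorted day 6 cells. In such bulk samples fewer cells of a type and less RNA per cell cannot be told apart either.

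Values are whole-number tag counts after normalization for GC content, and the authors made their distribution equal across samples, so that each sample sums to 17856940 with a median of 197 and depth is unknown. A value is comparable between samples for 1 gene but not between genes, since no length enters it. SPN, which encodes CD43, stood at 19 to 49 in day 6 CD43- and 5979 to 8780 in day 6 CD43+ samples. PTPRC, which encodes CD45, stood at 18 to 42 in day 16 CD43- and 10084 to 15868 in day 16 CD43+ samples, and the pluripotency gene POU5F1 at 25776 in H1 cells and at most 166 in CD43+ samples. Replicates 2 and 3 of the day 12 CD43- cells differed from replicate 1 by holding PTPRC at 197 and 371 against 4. Differences are in log2(value + 1), which understates changes of low genes, with a standard error (SE) and a Benjamini-Hochberg adjusted p from limma over 19788 genes. A gene was called at an adjusted p below 0.05 and a difference above 2, a fold change above 4.

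**Figure D1:**
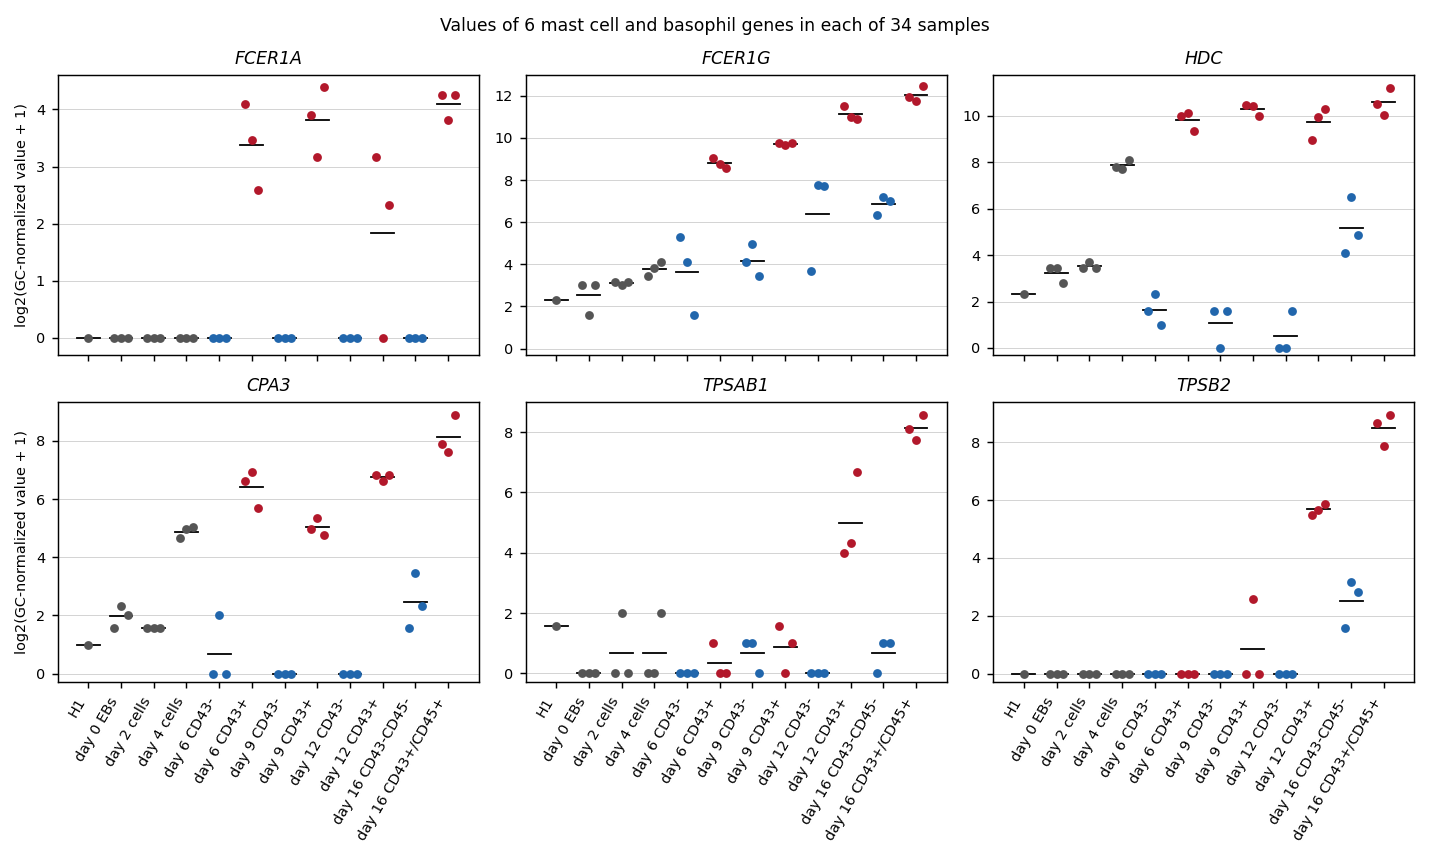
Values of the 6 genes as log2(GC-normalized value + 1), 1 point per sample, with the mean of each population as a black line (grey, unsorted; blue, CD43-; red, CD43+). TPSAB1 and TPSB2 lie near 0 until day 12, HDC and CPA3 are raised in day 4 cells, and FCER1A is above 0 in CD43+ samples alone.

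The alpha and gamma chains of the IgE receptor were first called in day 6 CD43+ cells, and the beta chain was not called there. FCER1A (ENSG00000179639, GRCh38 chr1:159289714-159308224, plus strand, protein coding) encodes the alpha chain, which binds IgE. It was listed at 0 in H1 cells, in all day 0, day 2 and day 4 samples and in all 12 CD43- samples. Its CD43+ values were 16, 10 and 5 (day 6), 14, 8 and 20 (day 9), 8, 0 and 4 (day 12) and 18, 13 and 18 (day 16). Thus 11 of 12 CD43+ samples lay above every CD43- sample, and replicate 2 of day 12 did not. FCER1A was called higher in CD43+ than in CD43- cells on day 6 (adjusted p = 1.98e-06), day 9 (adjusted p = 1.25e-07) and day 16 (adjusted p = 2.96e-08). On day 12 the adjusted p was 0.00161 but the difference did not reach the fold required. No fold is given against samples at 0. With 10 in place of 1 added before the log no FCER1A comparison reached the fold required.

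FCER1A is shown with the sequence ahead of its start because it was above 0 in CD43+ cells alone and because GATA1 and GATA2, which bind GATA motifs, are measured in the same samples. RefSeq places the start of the transcript at base 159302336, inside the gene as given above, and the stretch chr1:159302086-159302305 of GRCh38.p14, plus strand, ends where the first annotated exon of that end of the gene begins. Capitals mark the hexamer AGATAA read on the other strand, as TTATCT, 122 bases before the RefSeq start.
FCER1A: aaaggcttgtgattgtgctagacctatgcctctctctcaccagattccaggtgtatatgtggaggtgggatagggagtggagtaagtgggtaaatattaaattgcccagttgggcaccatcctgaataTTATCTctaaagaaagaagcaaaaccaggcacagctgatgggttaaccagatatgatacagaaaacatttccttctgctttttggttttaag
For GATA motifs the letters searched were AGATAA or AGATAG or TGATAA or TGATAG, on both strands, in the 250 bases before the start. At least 1 of them was found in 22.3% of 35116 RefSeq promoters of that length, and a match is a description of letters, not of binding.

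MS4A2 encodes the beta chain, which amplifies the signal of the receptor. It stood at 8, 8 and 4 in day 4 cells, at 4, 4 and 4 in day 6 CD43+ cells against 1, 1 and 2 in CD43- cells, and at 3, 6 and 2 in day 9 CD43+ cells against 0 in all CD43- samples. Later it stood at 6, 14 and 12 in day 12 CD43+ cells and at 34, 22 and 22 in day 16 CD43+ cells, against 0, 1 and 2 and 1, 2 and 1 in CD43- cells of those days. The CD43+ samples were above the CD43- samples on each of the 4 days. The difference was 1.13 on day 6 (adjusted p = 0.0190), under the fold required, and MS4A2 was called on day 9 (adjusted p = 3.36e-05). It was 2.61 on day 12 (adjusted p = 1.61e-06) and 3.53 on day 16 (adjusted p = 1.06e-08), both called by limma.

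FCER1G (ENSG00000158869, GRCh38 chr1:161215234-161220699, plus strand, protein coding) encodes the gamma chain, which carries the signalling motif of the receptor. It stood at 4 in H1 cells, at 2 to 7 in day 0 EBs, at 7 to 8 in day 2 cells and at 10, 13 and 16 in day 4 cells. In CD43+ cells it stood at 530, 426 and 385 on day 6, at 854, 799 and 857 on day 9, at 2898, 2060 and 1921 on day 12 and at 3945, 3460 and 5644 on day 16. No pair of neighbouring days overlapped in CD43+ cells, and the mean went from 447 ± 74.7 (SD, n = 3) on day 6 to 4350 ± 1147 on day 16.

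In CD43- cells FCER1G stood at 38, 16 and 2 on day 6, at 16, 30 and 10 on day 9, at 12, 218 and 207 on day 12 and at 81, 144 and 127 on day 16. Every CD43+ sample lay above every CD43- sample of its own day. The CD43 difference was 5.14 (SE 0.75, adjusted p = 2.33e-06) on day 6, 5.54 (adjusted p = 3.34e-07) on day 9, 4.75 (adjusted p = 3.00e-06) on day 12 and 5.21 (adjusted p = 7.44e-07) on day 16. Without replicate 1 of day 12 CD43- cells the day 12 difference was 3.40, and its change from day 9 was -2.14 (adjusted p = 0.0490), which was then called. Day 6 CD43+ cells lay 5.01 above the unsorted day 4 cells (SE 0.75, adjusted p = 3.36e-06). Between neighbouring days in CD43+ cells no FCER1G difference was called, since 0.92, 1.43 and 0.92 had adjusted p of 0.399, 0.106 and 0.341.

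Beside FCER1G a list of 13 receptors and relatives was read, some of which use it. The list also holds genes that do not, such as FCGR2A and TYROBP, so its counts are not those of gamma chain partners alone. Of these, 3, 8, 11 and 12 were called higher in CD43+ cells on days 6, 9, 12 and 16, and none was called lower. Among all tested genes 4.68%, 8.65%, 11.8% and 12.2% were called higher on these days and 7.85%, 12.8%, 14.4% and 13.6% lower. The median difference over the list went from 0.67 on day 6 to 5.75 on day 16, while that over all genes was 0.14 on both days. TYROBP, an adaptor of the same kind as the gamma chain, stood at 208, 116 and 109 on day 6, at 654, 558 and 573 on day 9, at 4174, 2722 and 2578 on day 12 and at 5458, 4693 and 6556 on day 16 in CD43+ cells. FCGR3A, an IgG receptor, stood at 0 in all day 6 samples, at 2, 3 and 4 in day 9 CD43+ cells, at 3299, 2074 and 1232 in day 12 CD43+ cells and at 4779, 4074 and 8794 in day 16 CD43+ cells. FCGR2A, an IgG receptor with a signalling motif of its own, differed by 4.78 on day 6 (adjusted p = 1.26e-07), and GP6, the collagen receptor of platelets, by 3.04 (adjusted p = 1.79e-05). CLEC7A, a receptor of fungal glucans, differed by 8.63 on day 16 (adjusted p = 2.98e-11) and OSCAR, a collagen receptor of myeloid cells, by 5.94 on day 12 (adjusted p = 1.90e-08). FCGR1A, the high-affinity IgG receptor, differed by 7.40 on day 16 (adjusted p = 2.32e-09). FCER2, the low-affinity IgE receptor, stood at 0, 6 and 10 in day 16 CD43+ cells and at 3 or below in every other CD43+ sample.

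Kinases and adaptors downstream of the receptor formed a list of 18 genes, of which 5, 10, 11 and 11 were called higher in CD43+ cells on days 6, 9, 12 and 16, and 0, 0, 1 and 1 lower. The shares over all tested genes were 4.68%, 8.65%, 11.8% and 12.2% higher and 7.85%, 12.8%, 14.4% and 13.6% lower. SYK, the kinase recruited by the gamma chain, stood at 265, 200 and 185 on day 6, at 2209, 2396 and 2209 on day 9, at 7028, 4654 and 4896 on day 12 and at 4540, 4285 and 5402 on day 16 in CD43+ cells. It differed from CD43- cells by 3.82 (SE 0.49), 6.70, 5.30 and 5.41 on these days (adjusted p = 4.07e-07, 6.07e-12, 3.44e-10 and 2.53e-10). LYN, the kinase that starts the signal, was above 500 in every sample and differed by 1.78, 2.04, 2.47 and 1.79, which reached the fold required on days 9 and 12. BTK and GRAP2, a kinase and an adaptor of the same pathway, differed by 4.75 (adjusted p = 1.66e-06) and 4.45 (adjusted p = 1.93e-05) on day 6. LAT2 and VAV1, further adaptors, differed by 5.74 (adjusted p = 2.42e-11) and 4.29 (adjusted p = 3.14e-11) on day 16.

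HDC was, with CPA3, the earliest of the 6 genes to be called. HDC (ENSG00000140287, GRCh38 chr15:50241947-50266026, minus strand, protein coding) encodes histidine decarboxylase, the enzyme that makes histamine. It stood at 4 in H1 cells, at 10, 10 and 6 in day 0 EBs, at 10, 12 and 10 in day 2 cells and at 224, 206 and 272 in day 4 cells. The day 4 samples lay above all earlier ones, by 4.33 (SE 0.52, adjusted p = 2.06e-07) over day 2. HDC overlaps the small RNA gene RN7SL494P on its own strand, and how the counting used strand is not given in the sources used here.

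In CD43+ cells HDC stood at 1011, 1121 and 640 on day 6, at 1422, 1388 and 1004 on day 9, at 492, 999 and 1247 on day 12 and at 1464, 1056 and 2379 on day 16. In CD43- cells it stood at 2, 4 and 1, at 2, 0 and 2, at 0, 0 and 2, and at 16, 90 and 28 on the same days. The ranges of the 4 CD43+ populations overlapped, while all their samples lay above every day 4 and every CD43- sample. The CD43 difference was 8.18 (SE 0.52, adjusted p = 1.54e-12) on day 6, 9.24 (adjusted p = 3.13e-14) on day 9, 9.20 (adjusted p = 1.63e-14) on day 12 and 5.44 (adjusted p = 6.29e-10) on day 16. Day 6 CD43- cells lay below day 4 cells, where HDC fell by 6.23 (adjusted p = 9.12e-10), and day 6 CD43+ cells lay 1.95 above them (adjusted p = 0.00275), under the fold required. No difference between neighbouring days in CD43+ cells was called for HDC, with 0.48, -0.56 and 0.86 (adjusted p = 0.542, 0.372 and 0.191). The smaller CD43 difference on day 16 than on day 12 was called as a change of the difference, -3.76 (SE 0.74, adjusted p = 8.51e-04), and came with higher values in CD43- cells of day 16. With 10 added before the log that change was -1.27 (adjusted p = 0.0741) and was not called.

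Other genes of histamine handling numbered 8, of which 1, 3, 4 and 5 were called higher in CD43+ cells on days 6, 9, 12 and 16 and 1 was called lower on each day. Over all tested genes the shares were 4.68%, 8.65%, 11.8% and 12.2% higher and 7.85%, 12.8%, 14.4% and 13.6% lower. SLC18A2, the vesicular transporter that loads histamine into granules, stood at 278, 275 and 190 in day 4 cells and at 1126, 993 and 1204 in day 6, 658, 744 and 497 in day 9, 244, 294 and 376 in day 12 and 342, 404 and 510 in day 16 CD43+ cells. No CD43- sample exceeded 38, and the CD43 difference was 5.26, 5.64, 6.55 and 5.24 on the 4 days (adjusted p = 2.68e-07, 3.33e-08, 1.62e-09 and 9.49e-08). SLC22A3, a transporter that takes histamine up from outside the cell, was the gene called lower, with differences of -4.49, -6.06, -7.28 and -3.35 on the 4 days. The receptor gene HRH2 differed by 3.41 on day 9 (adjusted p = 7.56e-07), by 5.73 on day 12 (adjusted p = 5.16e-11) and by 5.10 on day 16 (adjusted p = 5.37e-10). HRH1 stood at 160, 160 and 190 in day 16 CD43+ cells against 16, 14 and 14 in CD43- cells, a difference of 3.45 (adjusted p = 1.65e-04).

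**Figure D2:**
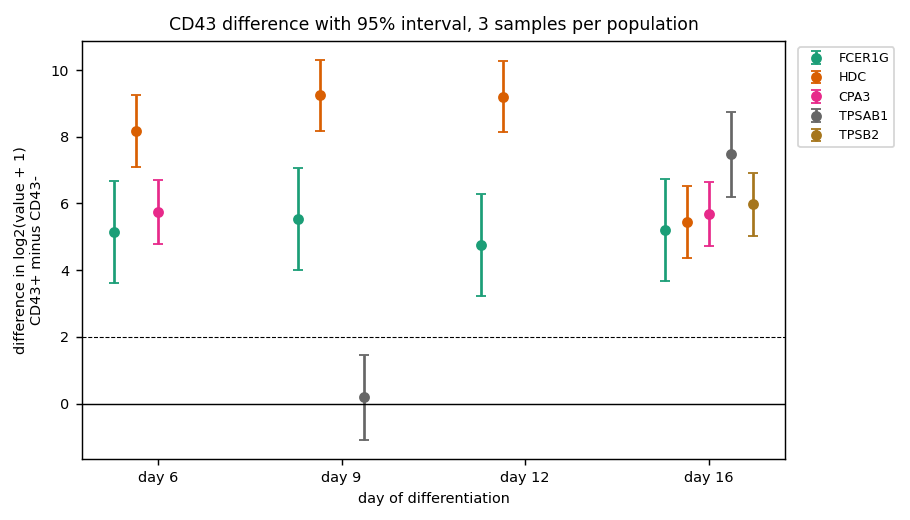
Difference in log2(value + 1) between CD43+ and CD43- cells of each day, with 95% intervals from limma over 3 samples per population. Comparisons with all samples of a population at 0 are not drawn, which leaves out FCER1A. HDC falls from 9.20 on day 12 to 5.44 on day 16, the FCER1G difference is 4.75 to 5.54 on the 4 days, and the dashed line marks the difference of 2 that a call needs.

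The proteases appeared in sequence. CPA3 (ENSG00000163751, GRCh38 chr3:148865256-148897196, plus strand, protein coding) encodes carboxypeptidase A3, a metalloprotease of mast cell granules. It stood at 1 in H1 cells, at 2, 4 and 3 in day 0 EBs, at 2, 2 and 2 in day 2 cells and at 24, 30 and 32 in day 4 cells, a rise of 3.30 from day 2 to day 4 (SE 0.47, adjusted p = 2.58e-06). In CD43+ cells it stood at 98, 121 and 51 on day 6, at 30, 40 and 26 on day 9, at 112, 98 and 112 on day 12 and at 236, 196 and 473 on day 16. The day 9 samples lay below all those of days 6 and 12, and the day 16 samples above all others.

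In CD43- cells CPA3 stood at 0, 3 and 0 on day 6, at 0 in all samples of days 9 and 12 and at 2, 10 and 4 on day 16. CPA3 was called higher in CD43+ cells on each day, with a difference of 5.75 (SE 0.47, adjusted p = 1.29e-10) on day 6 and 5.68 (adjusted p = 3.14e-11) on day 16, and an adjusted p of 4.80e-10 on day 9 and 9.27e-13 on day 12. In CD43+ cells day 9 differed from day 6 by -1.40 (adjusted p = 0.0236), and day 12 was 1.73 above day 9 (adjusted p = 0.00256), both under the fold required. The step from day 12 to day 16 was 1.38 (adjusted p = 0.0191). Day 6 CD43- cells lay 4.21 below the unsorted day 4 cells (adjusted p = 7.18e-08). An antisense gene, AC092979.1, overlaps CPA3, and reads of the pair cannot be told apart if strand was not used.

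The sequence ahead of CPA3 is shown because CPA3 and HDC moved together over the samples, as described below. RefSeq places the start at base 148865296, and the stretch is chr3:148865046-148865256 of GRCh38.p14, plus strand, whose last base is the first of the gene as given above. Capitals mark AGATAA, found at 173 and 45 bases before the RefSeq start by the search described for FCER1A.
CPA3: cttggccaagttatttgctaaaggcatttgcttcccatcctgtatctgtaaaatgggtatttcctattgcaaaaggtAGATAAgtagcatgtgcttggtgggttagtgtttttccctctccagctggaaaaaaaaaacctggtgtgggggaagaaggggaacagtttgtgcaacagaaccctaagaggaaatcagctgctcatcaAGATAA
CPA3 thus held 2 of the hexamers and FCER1A 1. The same search found none in the windows of HDC and FCER1G, which says only that these letters are not in those windows. Letters of PU.1 (GAGGAA), MITF (CACGTG or CATGTG) and the TATA box (TATAAA or ATAAAA) were searched as well. Those of PU.1 and MITF were read on both strands, and those of the TATA box on the strand of the gene alone. CPA3 held each of these 3 motifs once and HDC the PU.1 letters once, while FCER1A and FCER1G held none of them. The TATA box letters of CPA3, 29 bases before the RefSeq start, lie past the end of the stretch printed above. At least 1 match was found in 23.6%, 15.2% and 12.4% of the RefSeq promoters.

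TPSAB1 (ENSG00000172236, GRCh38 chr16:1240696-1242554, plus strand) and TPSB2 (ENSG00000197253, GRCh38 chr16:1227272-1230184, minus strand), both protein coding, encode the alpha and beta tryptases, the most abundant granule proteases of mast cells. Their transcripts are close copies: 1150 of 1165 aligned bases were identical between the main annotated transcripts, 98.7%, so the split of reads between both genes is uncertain. TPSAB1 stood at 0 to 3 in all 22 samples of H1 cells to day 9, and TPSB2 at 0 in all of them but 1, replicate 2 of day 9 CD43+ cells, at 5.

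In day 12 CD43+ cells TPSAB1 stood at 15, 19 and 102 and TPSB2 at 44, 50 and 58, while both were listed at 0 in all 3 CD43- samples. In day 16 CD43+ cells TPSAB1 stood at 276, 214 and 380 and TPSB2 at 408, 231 and 492, against 0, 1 and 1 and 2, 8 and 6 in CD43- cells. For both genes the day 16 CD43+ samples lay above those of day 12, and these above all samples of the other populations. The value of 102 for TPSAB1 in replicate 3 was not matched by TPSB2, which stood at 58 there.

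Both tryptase genes were called higher in CD43+ cells on day 12 (adjusted p = 6.12e-08 for TPSAB1 and 2.61e-11 for TPSB2) and on day 16, by 7.48 (SE 0.62, adjusted p = 3.65e-11) and 5.97 (SE 0.46, adjusted p = 1.03e-11). In CD43+ cells TPSAB1 rose by 4.14 (SE 0.62, adjusted p = 2.75e-06) from day 9 to day 12 and by 3.14 (adjusted p = 2.11e-04) from day 12 to day 16. TPSB2 rose by 4.82 (SE 0.46, adjusted p = 2.25e-09) and 2.81 (adjusted p = 2.56e-05) over the same steps, which share the day 12 samples. On days 6 and 9 neither gene was called, with adjusted p of 0.686 and 0.798 for TPSAB1 and 1 and 0.104 for TPSB2.

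TPSD1, the delta tryptase gene of the same cluster, stood at 12, 26 and 12 in day 12 and at 196, 83 and 258 in day 16 CD43+ cells, and at 0 in all sorted samples of days 6 and 9. It also stood at 4 in H1 cells, at 11, 2 and 6 in day 0 EBs and at 2 or 3 in day 2 and day 4 cells. Its transcript matched TPSAB1 in 88.5% of 1036 aligned bases, so its reads too may be shared. Among the 6 tested relatives and neighbours of the tryptases, chymase and CPA3, the calls were 1 higher and 1 lower on day 6, 2 and 2 on day 9, 3 and 2 on day 12 and 3 and 3 on day 16. All tested genes had shares of 4.68%, 8.65%, 11.8% and 12.2% higher and 7.85%, 12.8%, 14.4% and 13.6% lower on these days. CTSG, the cathepsin G of neutrophil and mast cell granules, stood at 2185, 2900 and 3877 in day 12 and at 4269, 2534 and 3701 in day 16 CD43+ cells, and was called on each day, with a difference of 3.57 (adjusted p = 5.84e-04) on day 6. PRSS22, an epithelial tryptase, went the other way, at 82 to 164 in day 12 CD43- cells and at 0, 0 and 2 in CD43+ cells (-6.24, adjusted p = 1.04e-11). CPA5, a relative of CPA3, stood at 10, 28 and 14 in day 9 CD43+ cells against 0, 2 and 0 (3.55, adjusted p = 6.14e-05).

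Of the 6 genes, 4 were called higher in CD43+ cells on day 6, where 4.68% of all tested genes were called higher and 7.85% lower. The 4 were FCER1A, FCER1G, HDC and CPA3, and on day 9 they were called again, against 8.65% of all genes called higher and 12.8% lower. On day 12 there were 5 called higher, without FCER1A and with both tryptases, against 11.8% of all genes higher and 14.4% lower. On day 16 all 6 analysed were called higher, against 12.2% of all genes higher and 13.6% lower. TPSAB1, TPSB2 and FCER1A passed the filter on low values through CD43+ samples alone, so their counts describe where they were seen. The median difference of all genes was 0.14 to 0.24 in these comparisons, and median-of-ratios scaling moved it to 0.00 on day 6 and 0.04 on day 9, with the direction of every called gene of the 6 kept.

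Between days in CD43+ cells, none of the 6 was called from day 6 to day 9 by limma, where 7.53% of all genes were called in either direction and 1 of the 6, CPA3, had an unadjusted p under 0.05. From day 9 to day 12 the 2 tryptases were called higher, against 8.45% of all genes. From day 12 to day 16, 3 were called higher, both tryptases and FCER1A, against 3.79%. FCER1A differed by -1.99 between day 12 and day 9 (adjusted p = 0.00104), just under the fold required, and rose by 2.27 from day 12 to day 16 (SE 0.49, adjusted p = 4.92e-04). Without replicate 2 of the day 12 CD43+ cells, where FCER1A was at 0, that last step was 1.36 and was not called.

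Before sorting, none of the 6 was called between day 0 and day 2 by limma, where 7.88% of all genes were called in either direction and 0 of the 6 had an unadjusted p under 0.05. HDC and CPA3 were the 2 called higher from day 2 to day 4, against 4.97% of all genes. From day 4 cells to day 6 CD43+ cells FCER1A (adjusted p = 1.94e-06) and FCER1G were called higher, against 6.80%, and from day 4 to day 6 CD43- cells HDC and CPA3 were called lower, against 2.77%.

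Whether the CD43 difference itself changed between days was tested as an interaction. Where the CD43- samples of both days were all at 0, the change equals the step in CD43+ cells and is no separate test. This held for FCER1A at each step, for TPSB2 up to day 12 and for CPA3 from day 9 to day 12. From day 6 to day 9 none of the 6 changed by limma, with 0 at an unadjusted p under 0.05 and 7.39% of all genes called in either direction. From day 9 to day 12 TPSAB1 by 4.81 (SE 0.88, adjusted p = 1.54e-04) and TPSB2 by 4.82 (SE 0.66, adjusted p = 3.51e-06) were called higher, against 4.61% of all genes, and FCER1A changed by -1.99 (adjusted p = 0.0306), under the fold required. From day 12 to day 16 FCER1A by 2.27 (adjusted p = 0.0226) and HDC in the other direction were called, against 5.03% in either direction. The FCER1A change was not called without replicate 2 of day 12 CD43+ cells (1.36, adjusted p = 0.0722), with 0.1 added before the log (adjusted p = 0.0731), with 10 added (0.95, under the fold required) or with only the compared populations fitted (adjusted p = 0.154). TPSAB1 changed by 2.48 over that step with an adjusted p of 0.0512, and with 10 added before the log the changes of TPSAB1 (2.66, adjusted p = 8.97e-05) and TPSB2 (2.02, adjusted p = 6.01e-06) were called.

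CD43- cells held little of these genes, with exceptions on days 12 and 16. From day 6 to day 9 none of the 6 was called by limma, with 0 at an unadjusted p under 0.05, where 1.75% of all genes were called in either direction. From day 9 to day 12 FCER1G rose by 2.22 (SE 0.75, adjusted p = 0.0209), 1 of the 6 against 4.52% of all genes called higher. The rise was carried by replicates 2 and 3, at 218 and 207, while replicate 1 stood at 12, within the day 9 range of 10 to 30. In the same 2 samples PTPRC stood at 197 and 371 against 4, CSF1R, the receptor of macrophage growth factor, at 1379 and 2314 against 71, and MPO, the neutrophil peroxidase, at 324 and 4608 against 16. The summed value of 9 monocyte and macrophage markers was 262 in replicate 1 and 4417 and 5890 in the others, with MARCO at 0 in all 3. With replicate 1 alone the FCER1G difference from day 9 was -0.47 (adjusted p = 0.734), and none of the 6 was called.

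On day 16 CD43- cells had HDC 4.62 (SE 0.52, adjusted p = 8.16e-08), TPSB2 2.52 (adjusted p = 8.31e-05) and CPA3 2.46 (adjusted p = 1.20e-04) above day 12, so that 3 of the 6 were called higher against 4.46% of all genes. The fold is relative to samples at or near 0 on day 12 and is no bound. Replicate 2 held the highest value of HDC (90), CPA3 (10), TPSB2 (8) and FCER1G (144), and also the highest of MPO (12840 against 4657 and 8970), PRG2 (3658 against 765 and 1674) and PF4 (3224 against 1062 and 1582). Summed markers of eosinophils were 1088 to 5144, of neutrophils 6185 to 20434 and of megakaryocytes 4748 to 14545 in these samples, with no marker at 0 in all 3 samples, while in day 9 CD43- cells they were 8 to 11, 51 to 86 and 195 to 257. The part of such cells in the values of the 6 genes in CD43- samples was not tested. FCER1A stayed at 0 in all of these samples.

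**Figure D3:**
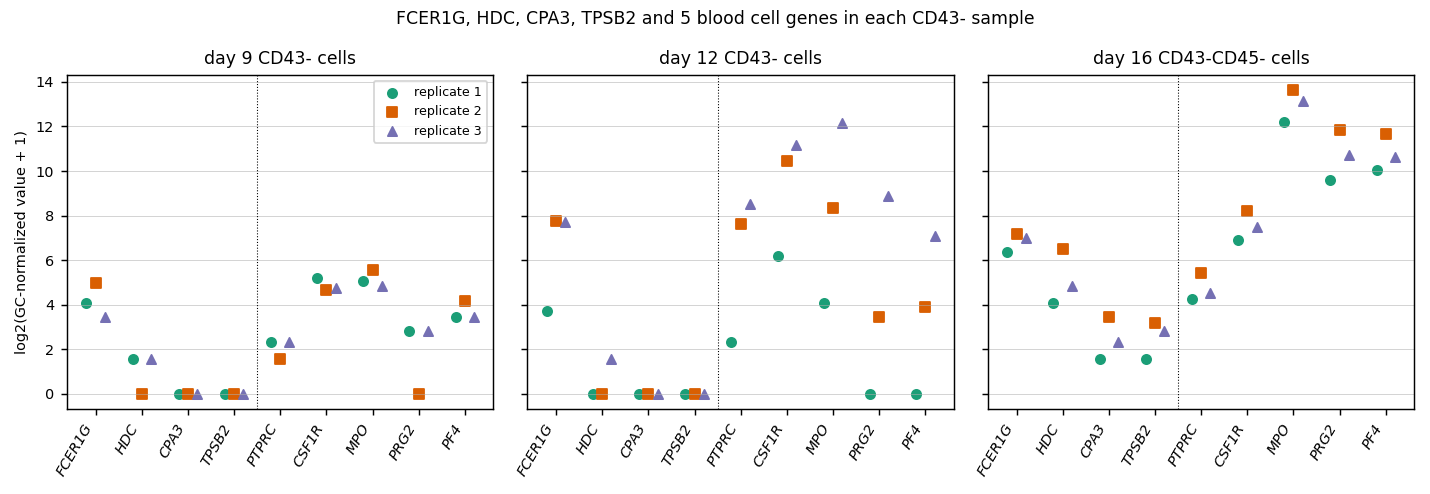
Values of FCER1G, HDC, CPA3 and TPSB2 (left of the dotted line) beside PTPRC, CSF1R, MPO, PRG2 and PF4 in each CD43- sample of days 9, 12 and 16, as log2(GC-normalized value + 1), 1 symbol per replicate. On day 12 replicate 1 lies at 12 for FCER1G and replicates 2 and 3 at 218 and 207, and on day 16 replicate 2 is highest for all 4 of these genes.

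Over the 34 samples CPA3 and HDC had the most similar patterns among the 6, with Pearson's r of 0.96 and Spearman's rho of 0.94 on log2(value + 1). TPSAB1 and TPSB2 followed with r of 0.92, and the other pairs lay between 0.51 and 0.80. These are descriptions over samples that share populations, and samples at 0 weigh in them. Among all tested genes, the 3 most like HDC were NFE2 (r 0.97), a factor of erythroid and megakaryocytic genes, CPA3, and TSPOAP1-AS1 (r 0.95). CPA3 was followed by HDC, AF127936.5 (r 0.95) and LINC01140 (r 0.94), both non-coding. FCER1G was most like TYROBP, SPI1, a myeloid transcription factor, and NCKAP1L, a regulator of actin in blood cells (each r 0.97). TPSAB1 was most like ADGRE3 (r 0.96), LILRA1 (r 0.94) and ADAMDEC1 (r 0.93), genes of myeloid cells, and TPSB2 like FCGR3B, TLR8 and P2RY13 (each r 0.96). FCER1A was most like CAT (r 0.91), the catalase gene, RP13-786C16.1 (r 0.90) and BMP2K (r 0.90).

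**Figure D4:**
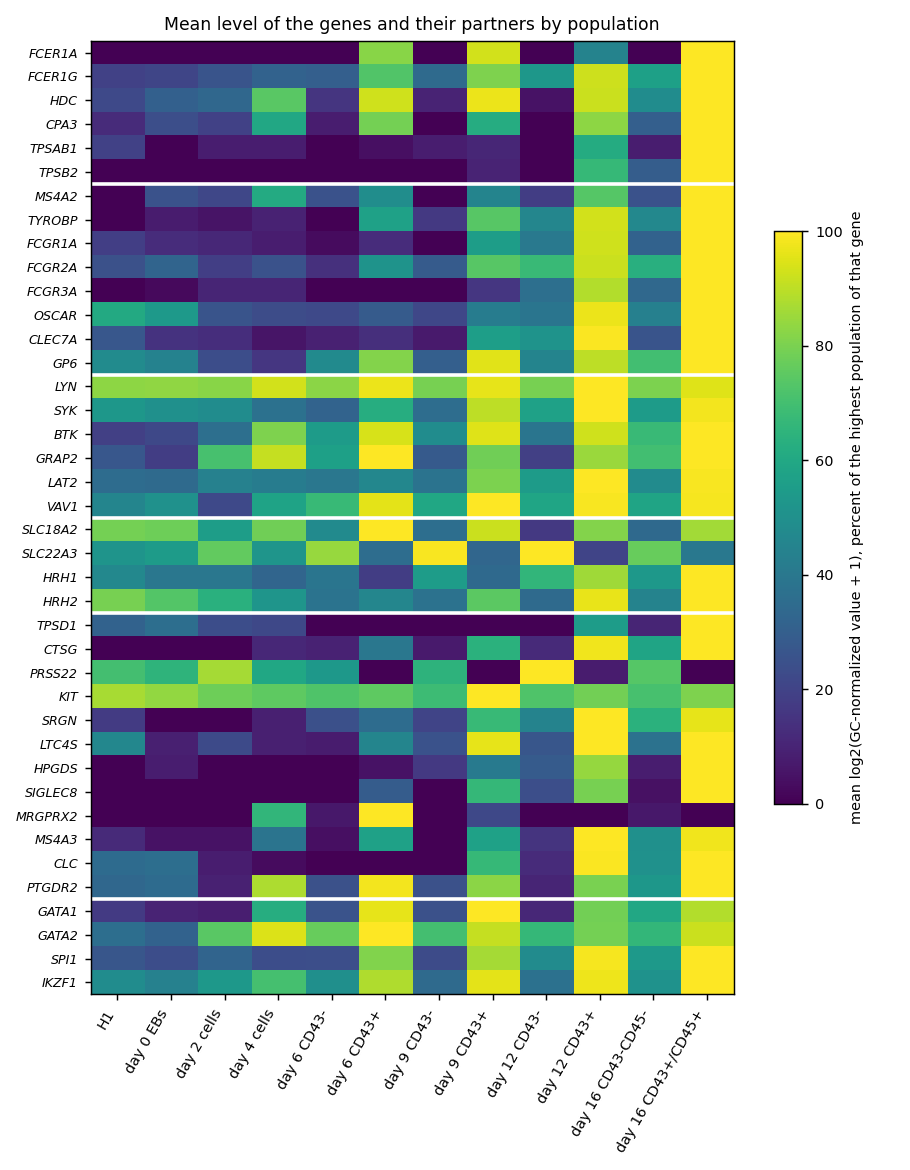
Mean log2(GC-normalized value + 1) of the 6 genes and related genes in each of 12 populations, as a percent of the highest population of that gene, so that colours are not compared as levels between genes. From the top, white lines separate the 6 genes, receptors and adaptors, signalling genes, histamine genes, other mast cell and basophil genes, and transcription factors. HDC and CPA3 show in day 4 cells and in all CD43+ populations, whereas TPSAB1, TPSB2 and TPSD1 are highest on days 12 and 16, with lower values of TPSD1 also in H1 cells and day 0 EBs.

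Other genes of mast cells numbered 20, of which 9, 11, 9 and 11 were called higher in CD43+ cells on days 6, 9, 12 and 16 and 1, 0, 0 and 0 lower. The remaining 10, 9, 11 and 9 were not called, so the list did not move as a whole. RGS13 stood at 3, 2 and 2 in day 6 CD43+ cells against 46, 37 and 108 in CD43- cells. ENPP3 was at 16 or below in every sample, at 7, 6 and 16 in day 16 CD43+ cells against 12, 8 and 10 in CD43- cells. Shares over all tested genes were 4.68%, 8.65%, 11.8% and 12.2% higher and 7.85%, 12.8%, 14.4% and 13.6% lower. KIT, the receptor of stem cell factor on which mast cells depend, was above 100 in every sample, at 836 in H1 cells, and highest in day 9 CD43+ cells, at 1991, 2064 and 3108. Its CD43 difference was called on day 9 (3.50, adjusted p = 4.59e-09) and was 0.32, 0.71 and 1.13 on days 6, 12 and 16 (adjusted p = 0.500, 0.0875 and 0.00857). MRGPRX2, the mast cell receptor of peptides, had another course, at 27, 36 and 36 in day 6 CD43+ cells and at 4 or below in all later samples. PTGS1, a cyclooxygenase, differed by 5.02 on day 6 (adjusted p = 2.57e-09). SRGN, a granule proteoglycan that binds tryptase and histamine, differed by 7.57 on day 9 (adjusted p = 9.30e-08) and 8.91 on day 12 (adjusted p = 3.83e-09). It stood at 48025, 90700 and 90700 in day 12 CD43+ cells, and 90700 is the highest of all values, so the day 12 difference is capped. RAB27B, a GTPase of granule release, differed by 7.34 on day 9 (adjusted p = 2.50e-11). In day 16 CD43+ replicates 1, 2 and 3 RAB27B stood at 4156, 12018 and 1510 and PTGS1 at 6704, 8088 and 2680. The summed megakaryocyte markers of these samples were 61962, 95552 and 25389, whereas both tryptases were highest in replicate 3. Whether RAB27B and PTGS1 came from megakaryocytes was not tested.

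Enzymes of lipid mediators in the same list also differed. LTC4S, which makes leukotriene C4, differed by 6.26 on day 9 (adjusted p = 1.25e-06), 6.41 on day 12 (adjusted p = 6.94e-07) and 5.49 on day 16 (adjusted p = 7.52e-06). ALOX5, the lipoxygenase of the same pathway, differed by 4.74 on day 12 (adjusted p = 1.98e-09). HPGDS, which makes prostaglandin D2, stood at 98, 72 and 162 in day 16 CD43+ cells against 0, 0 and 2, a difference of 6.19 (adjusted p = 1.70e-08). SIGLEC8, a surface receptor of mast cells and eosinophils, stood at 138, 97 and 207 against 0, 1 and 0 there (6.81, adjusted p = 3.76e-12).

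Of 11 other basophil genes tested, 3, 7, 9 and 8 were called higher in CD43+ cells on days 6, 9, 12 and 16, and none lower. For all tested genes the shares were 4.68%, 8.65%, 11.8% and 12.2% higher and 7.85%, 12.8%, 14.4% and 13.6% lower. MS4A3, a gene of basophil and granulocyte precursors, stood at 176, 220 and 156 in day 6, at 186, 151 and 219 in day 9, at 5644, 10446 and 12854 in day 12 and at 9248, 5562 and 8512 in day 16 CD43+ cells. PTGDR2, the prostaglandin D2 receptor of basophils, eosinophils and T helper cells, stood at 163, 130 and 208 in day 4 cells and at 260, 334 and 319 in day 6 CD43+ cells, and differed by 6.17 on day 6 (adjusted p = 2.05e-11). CLC, a protein of eosinophil and basophil granules that is also among the eosinophil markers below, stood at 0 in all day 6 samples, at 214, 404 and 142 in day 9 and at 3186, 3420 and 3205 in day 12 CD43+ cells. IL5RA, the interleukin 5 receptor, differed by 7.64 on day 12 (adjusted p = 5.76e-11) and CD200R1 by 4.63 on day 6 (adjusted p = 9.60e-07).

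Transcription factors of mast cells and basophils numbered 12, of which 6, 7, 6 and 8 were called higher in CD43+ cells on days 6, 9, 12 and 16, and 1 lower, on day 9. Across all tested genes the shares were 4.68%, 8.65%, 11.8% and 12.2% higher and 7.85%, 12.8%, 14.4% and 13.6% lower. GATA2, required for mast cells and basophils, stood at 6242, 5777 and 6000 in day 4 cells, at 10075, 9886 and 9230 in day 6, at 3890, 4472 and 4839 in day 9, at 932, 1888 and 1724 in day 12 and at 5632, 4148 and 4422 in day 16 CD43+ cells. Its lowest CD43+ values were thus on day 12, where its CD43 difference of 1.66 was under the fold required (adjusted p = 2.94e-05). GATA1 stood at 166, 140 and 203 in day 4 cells and differed by 8.38, 8.92 and 8.01 on days 6, 9 and 12 (adjusted p = 2.37e-11, 1.76e-12 and 8.88e-12). SPI1, which encodes PU.1, stood at 6 to 10 in day 4 cells and at 1247 to 1553 in day 6 CD43+ cells, and differed by 7.35 on day 6 (adjusted p = 1.66e-07). IKZF1 differed by 4.45, 7.11, 7.01 and 5.69 on the 4 days (adjusted p = 1.69e-06, 2.12e-10, 1.84e-10 and 9.86e-09). MITF, the factor that acts with KIT in mast cells, was not called on any day, with 1.04, -0.97, -0.26 and -0.84 (adjusted p = 0.104, 0.109, 0.674 and 0.162).

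CD43+ cells held markers of many blood cells beside these genes. The counts below stand beside shares over all tested genes of 4.68%, 8.65%, 11.8% and 12.2% called higher on days 6, 9, 12 and 16. The shares called lower were 7.85%, 12.8%, 14.4% and 13.6%. Of 6 eosinophil granule markers, 2 were called higher and 1 lower on day 6 and 6 higher on each later day, and their summed value went from 64 to 156 on day 6, with RNASE2, RNASE3 and CLC at 0, to 33714 to 67745 on day 12 and 56180 to 119489 on day 16. Of 9 neutrophil granule markers, 3, 6, 9 and 9 were called higher, with sums of 130 to 155 on day 6 and 138738 to 178546 on day 16. MPO alone stood at 90700, the highest of all values, in every CD43+ sample of days 12 and 16, so its part of these sums is capped. Of 9 monocyte and macrophage markers, 1, 5, 9 and 9 were called higher and 1 lower, on day 6, with sums of 354 to 738 on day 6 and 59972 to 68640 on day 16. Of 4 dendritic cell markers tested, 1, 3, 4 and 4 were called higher, with sums of 34 to 69 on day 6 and 108 to 254 on day 16. Erythroid markers, 7 of 7 called on days 6, 9 and 12 and 6 on day 16, had sums of 108462 to 118222 on day 6 and 4690 to 10240 on day 16. The globin gene HBE1 stood at the same cap of 90700 in every day 6 CD43+ sample and made up most of the day 6 sums. Megakaryocyte markers, 5 of 6 called on day 6 and 6 later, had sums of 9631 to 14538 on day 6 and 25389 to 95552 on day 16. The tryptases and FCER1G were thus highest in the days on which granulocyte and monocyte markers were highest. HDC and CPA3 also had their highest mean on day 16, and stood at 640 to 1121 and 51 to 121 on day 6, when the erythroid sum was high and that of neutrophil markers low. The part of each cell type in the values of the 6 genes was not tested.

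Replicates within CD43+ populations differed along these markers. On day 12 replicate 1 had the lowest HDC (492 against 999 and 1247) and the highest FCER1G (2898 against 2060 and 1921), with CD163, a macrophage scavenger receptor, at 17368 against 4720 and 2706. On day 16 replicate 3 had the highest values of TPSAB1, TPSB2, CPA3, HDC and FCER1G, and the platelet gene PPBP at 6913 against 22818 and 37170. Whether these values are linked was not tested.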

How the data were processed

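RNA sequencing of 34 samples was analysed. Reads were mapped by the authors to Ensembl transcripts using bowtie2 and RSEM (the submitters' processing notes also name STAR 2.7 and bcl2fastq) and tag counts were then normalized for GC content within and between samples with EDASeq. The deposited values are whole numbers of that normalized unit and were treated as a score, neither counts nor CPM. Sorted by size they were identical in all samples, 1292 of them at 0 and the highest at 90700, so that depth and counting precision are unknown, and errors come from the replicates. The deposited table also holds the GC percent of each gene, which was not used in a test. Unused columns of per-sample values numbered 0.

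A single limma model (version 3.58.1, R 4.3.3, moderated with a trend) was fitted to log2(value + 1) of the 33 replicated samples, leaving out H1 cells and with no block for replicate. It covered 19788 genes that reached 10 in 3 or more samples. Thresholds were an adjusted p of 0.05 and a fold change of 4, after the study's own. Tests numbered 17: the CD43 difference on each of 4 days, its change between days, and neighbouring days. Similarity of genes is Pearson's r over 34 samples. Promoters were taken from RefSeq (GRCh38.p14), with 4 of the 6 genes matched, and transcripts aligned with biopython 1.88. Tables were handled with numpy 2.4.6, pandas 2.3.3 and scipy 1.17.1, and figures drawn with matplotlib 3.10.9. The procedure was also run on simulated data for a single comparison, with changes added only to genes of higher values. That run did not cover genes at low values such as FCER1A and the tryptases.

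The genes and the lists were chosen with earlier results of these data known. Named beside the 6 genes are the 3 most similar genes of each, up to 3 called genes with the largest difference per list and CD43 comparison, and KIT, MS4A2, GATA2, LYN, SYK and TYROBP. A gene that this rule names is not reported here. MITF, FCER2, RGS13, ENPP3, PTPRC, CSF1R, CD163, MPO, PRG2, PF4, PPBP and HBE1 were named after their values were seen. Whether same-numbered CD43+ and CD43- samples deviated together was read as correlations over genes, which were 0.198, 0.109 and 0.199 on day 6. They were 0.017 to 0.078 on day 9, 0.039 to 0.108 on day 12 and -0.015 to 0.042 on day 16. The highest were thus on day 6, but the day 6 value of 0.109 was close to the day 12 value of 0.108. The main model assumed no pairing on any day, and a replicate block was used in alternatives only. Alternatives were other pseudocounts, filters, scaling, a replicate block, a fit of the compared populations, a lower fold and leaving out each replicate, and 2 were chosen after seeing the data: replicate 1 alone of the day 12 CD43- cells, and a replicate block within day 6.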

Additional observations from a re-analysis of the deposited data

Results flagged for a closer look

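The CD43 difference of 4 of the 6 genes changed between neighbouring days at an adjusted p below 0.05 in limma's test of that change. No share of all genes at that adjusted p alone is given. With a fold above 4 also required, none of the 6 was called from day 6 to day 9 (7.39% of all genes in either direction). TPSAB1 and TPSB2 were called from day 9 to day 12 (4.61% of all genes higher), and FCER1A and HDC from day 12 to day 16 (5.03% in either direction). TPSAB1 changed by 4.81 and TPSB2 by 4.82 from day 9 to day 12, where both were higher in CD43+ samples of day 12 and at 0 in all 3 CD43- samples of that day. TPSB2 was at 0 in the day 9 CD43- samples too, so its change is the step in CD43+ cells. FCER1A changed by -1.99 from day 9 to day 12, under the fold required, and by 2.27 from day 12 to day 16. All CD43- samples were at 0 there, and 1 of the 3 day 12 CD43+ samples was at 0 as well. Both FCER1A changes thus equal the steps in CD43+ cells given above and are no separate test. HDC changed by -3.76 from day 12 to day 16, with CD43- samples at 0, 0 and 2 on day 12 and at 16, 90 and 28 on day 16. With 10 added before the log the HDC change was -1.27 (adjusted p = 0.0741) and was not called, while those of TPSAB1 and TPSB2 over that step, 2.66 and 2.02, were called. The last FCER1A change was not called without replicate 2 of day 12 CD43+ cells (1.36, adjusted p = 0.0722).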

How the results depend on the processing

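Of the 17 counts of called genes, those of the CD43 comparisons on days 6, 9, 12 and 16 stayed within 1.5 times the reported count under every alternative run. With a replicate block the counts were 4, 4, 5 and 6 on these days, as without it. With a replicate block in the day 6 populations only, the count was 3, FCER1A not being tested there. With 10 added before the log, 1 gene was called in CD43+ cells from day 9 to day 12, 0 in CD43- cells from day 9 to day 12, 1 in CD43- cells from day 12 to day 16, 1 between days 2 and 4, and 1 between day 4 cells and each day 6 population. With a minimum of 100, 1 was called from day 4 to day 6 CD43+ cells and 1 for the day 12 to 16 change of the CD43 difference, FCER1A being removed. With only the compared populations fitted, 0 were called in CD43- cells from day 9 to day 12, 1 from day 12 to day 16, 1 from day 4 to day 6 CD43+ cells and 1 for the day 12 to 16 change of that difference, FCER1A losing its call. With a fold above 2, 1 was called between days 6 and 9 and 4 between days 9 and 12 in CD43+ cells, and 4 between day 4 and day 6 CD43+ cells. Leaving out 1 replicate at a time gave 0 to 1 for CD43- cells from day 9 to day 12 and 1 to 3 for the day 12 to 16 change, and day 12 CD43- replicate 1 alone gave 0 and 1, FCER1A losing its call for that change (adjusted p = 0.0687). The tryptase step from day 12 to day 16 in CD43+ cells lost its call for TPSAB1 with 0.1 added (adjusted p = 0.0775), and without replicate 3 of day 12 CD43+ cells the change of the CD43 difference of TPSAB1 was called, at 3.32. With 10 added the HDC change of that difference from day 12 to 16 lost its call, at -1.27.

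Among called differences the sign turned for FCER1G in CD43- cells from day 9 to day 12, with day 12 CD43- replicate 1 alone. The other signs that turned were of differences not called. With 0.1 added, the CD43 difference changed by 0.23 for CPA3 (day 6 to 9), 0.90 for HDC (day 9 to 12) and -2.72 for TPSB2 (day 12 to 16). With 10 added the change was 0.73 for CPA3 (day 12 to 16), and FCER1G differed by 0.11 between day 6 CD43- and day 4 cells. Scaling made the HDC change from day 9 to day 12 0.13. With day 12 CD43- replicate 1 alone, HDC changed by 0.49 and FCER1G by 1.90 from day 9 to day 12 and FCER1G by -2.23 from day 12 to day 16, and FCER1G in CD43- cells from day 9 to day 12 was -0.47. Leaving out 1 replicate at a time, FCER1G ranged from -0.95 to 0.90 between day 6 CD43- and day 4 cells, from -0.52 to 1.33 between days 6 and 9 and from -0.89 to 1.15 between days 12 and 16 in CD43- cells, and the change of its CD43 difference ranged from -0.42 to 1.43 (day 6 to 9) and from -0.23 to 1.81 (day 12 to 16). That change ranged from -0.31 to 0.49 for HDC (day 9 to 12) and from -0.18 to 0.61 for TPSB2 (day 12 to 16). Apart from the alternatives that remove genes or samples, the cause was not tested. Depth is unknown, so it sets no limit that can be stated for FCER1A or the tryptases at low values.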
